A study of Mus musculus with 6 samples.

Results

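The nuclear genes for subunits of the mitochondrial respiratory chain were followed in the ileum, where the small intestine ends, of C57BL/6J mice. They were chosen by gene symbol: Nduf subunits, Sdha to Sdhd, and symbols starting with Uqcr, Cox4 to Cox8 or Atp5, read by a probe with a single symbol. A symbol was kept when its probe was detected (detection p under 0.05) on most arrays of at least 1 sample. Of 75 matching symbols 68 passed, among 12196 genes that passed the same filter. Of these, 3 are older names of genes that encode no subunit and were set aside: Cox4nb, now Emc8 of the endoplasmic reticulum, and Atp5s and Atp5sl, now Dmac2l and Dmac2. The remaining 65 subunits comprise 30 of complex I, 4 of complex II, 6 of complex III, 14 of complex IV and 11 of complex V.

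The 6 samples came from SPF postweaned, germ-free postweaned, humanized gnotobiotic preweaned, SPF preweaned and germ-free preweaned mice. The last group holds 2 samples and each of the others 1. SPF mice are conventional mice in specific pathogen free housing, germ-free mice lived in isolators, and the humanized mouse is a gnotobiotic animal whose microbes are not described in the sources used here. All were of the same strain with no genetic change named, an age of 3 weeks is given only for the gnotobiotic mouse and the germ-free mice set beside it, and whether a sample pools several animals is not given. Each sample was read on 3 one-colour Mouse OneArray slides, or 6 for germ-free preweaned 1, and all levels below are log2 normalized intensity.

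The respiratory chain sits in the inner mitochondrial membrane. Complex I takes electrons from NADH and complex II, which is also the succinate dehydrogenase of the citric acid cycle, from succinate. Complex III passes them to cytochrome c, complex IV hands them to oxygen, and complex V, the ATP synthase, makes ATP from the proton gradient that complexes I, III and IV build. A small core of these subunits is encoded in mitochondrial DNA, and the rest, including all those measured here, in the nucleus. Absorptive enterocytes are rich in mitochondria, since uptake of nutrients against a gradient runs on ATP. None of the mitochondrial DNA genes (0 of 13) is named in the array's annotation, so the chain was read through its nuclear genes.

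Many nuclear genes of the chain are known targets of the transcription factors NRF-1, GABPA (also called NRF-2), YY1 and the estrogen-related receptor alpha. RefSeq promoter windows, from 250 bases before to 50 after the transcription start on build GRCm38.p6, were at hand for 53 of the 65 subunits. The palindrome-like consensus of NRF-1, sought on both strands, stood in 13 of the 53, or 24.5%, against 9.98% of 9547 tested genes with a window and 4.60% of all 32851 windows. The GABPA letters CCGGAAG stood in 12 subunits, or 22.6%, against 18% of tested genes. The YY1 letters ATGGCGG stood in 9, or 17%, against 8.42%, and the estrogen-related receptor letters CAAGGTCA in 2, or 3.77%, against 1.34%. To show what such a promoter looks like, the windows below are 1 per complex, each from a subunit above background in all 6 samples whose single window holds that consensus; of several, the subunit with the lowest postweaned over preweaned value in SPF ileum was taken. Capitals mark NRF-1 and GABPA matches on either strand.
Ndufa6 promoter (chr15:82354242-82354541, minus strand): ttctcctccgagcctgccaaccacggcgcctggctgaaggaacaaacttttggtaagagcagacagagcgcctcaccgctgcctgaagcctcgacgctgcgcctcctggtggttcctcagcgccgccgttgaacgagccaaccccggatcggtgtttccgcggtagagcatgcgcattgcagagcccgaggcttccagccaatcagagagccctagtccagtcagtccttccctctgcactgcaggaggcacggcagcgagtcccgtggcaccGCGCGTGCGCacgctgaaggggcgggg
Sdha promoter (chr13:74350191-74350490, minus strand): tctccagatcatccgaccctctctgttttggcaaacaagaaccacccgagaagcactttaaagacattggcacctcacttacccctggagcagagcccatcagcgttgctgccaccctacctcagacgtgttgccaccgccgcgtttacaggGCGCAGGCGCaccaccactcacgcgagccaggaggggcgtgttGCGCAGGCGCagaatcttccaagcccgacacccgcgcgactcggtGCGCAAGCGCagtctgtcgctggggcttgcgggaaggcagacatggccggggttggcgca
Uqcrc1 promoter (chr9:108936398-108936697, plus strand): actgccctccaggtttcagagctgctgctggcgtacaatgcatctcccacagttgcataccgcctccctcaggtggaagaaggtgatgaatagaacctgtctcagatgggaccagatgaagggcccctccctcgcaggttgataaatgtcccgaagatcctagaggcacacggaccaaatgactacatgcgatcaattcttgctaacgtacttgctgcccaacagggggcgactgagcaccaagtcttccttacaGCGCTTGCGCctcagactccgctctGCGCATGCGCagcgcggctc
Cox6a1 promoter (chr5:115348909-115349208, minus strand): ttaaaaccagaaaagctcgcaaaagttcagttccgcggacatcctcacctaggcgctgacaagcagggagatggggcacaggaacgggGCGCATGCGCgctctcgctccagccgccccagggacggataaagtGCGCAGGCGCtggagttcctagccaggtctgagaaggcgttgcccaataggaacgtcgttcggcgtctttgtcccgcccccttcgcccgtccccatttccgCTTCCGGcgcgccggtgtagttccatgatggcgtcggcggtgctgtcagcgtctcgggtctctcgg
Atp5k promoter (chr5:108434350-108434649, minus strand): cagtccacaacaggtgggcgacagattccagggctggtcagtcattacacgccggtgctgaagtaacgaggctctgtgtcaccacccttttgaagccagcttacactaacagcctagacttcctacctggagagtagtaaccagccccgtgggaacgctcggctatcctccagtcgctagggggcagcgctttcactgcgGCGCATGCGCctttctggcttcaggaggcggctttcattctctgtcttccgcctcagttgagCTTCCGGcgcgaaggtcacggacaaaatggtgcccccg
Sdha, the catalytic subunit of complex II, holds 3 NRF-1 matches, at 98, 55 and 10 bases before the start. Uqcrc1, a core protein of complex III, holds 2, both after the start. Cox6a1 and Atp5k hold a GABPA match beside NRF-1. A match is a run of letters, and binding was not measured.

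Some samples stood apart before any subunit was looked at. Between 33.6% and 55.1% of probes were detected per array, and repeat arrays gave a median SD per subunit of 0.06 to 0.13 in the samples with 3 arrays and of 0.22 over the 6 arrays of germ-free preweaned 1. The enterocyte markers on the list (Vil1, Alpi, Fabp2 and others) were above background in all samples, 10 of 10. Ileal markers were less even: 2 of 5 were above background in the humanized sample, where Fabp6, Slc10a2 and Fgf15 were not, against 4 or 5 of 5 elsewhere. Suckling and adult markers divided the preweaned samples: Mamdc4, of the endocytic machinery of suckling enterocytes, stood at 7.81 in SPF postweaned, 8.42 in germ-free postweaned, 7.61 in humanized, 14.83 in SPF preweaned, and 14.82 and 7.81 in germ-free preweaned 1 and 2. Sis, the sucrase-isomaltase of the adult gut, stood at 14.35, 13.50, 15.27, 13.04, 9.04 and 15.03 in the same order. For Mamdc4, the humanized sample and germ-free preweaned 2 thus lay beside the postweaned samples. A further division crossed the groups, seen in 98 probes. They were detected on every array of germ-free preweaned 1, germ-free preweaned 2 and humanized and on none of the other 3, or the reverse. Another division of the samples into 3 and 3 gave 70 probes. Those were detected on every array of germ-free preweaned 1, SPF postweaned and humanized and on none of the rest. The first of these divisions is called array sets below. Along it 1 of 65 subunits, Atp5o, differed at least 2-fold, as did 391 of 12196 genes. The array sets are read from detection alone, and no label or heading names them. By that division only SPF against germ-free after weaning, SPF weaning, and humanized against germ-free before weaning lie within a set. In the remaining comparisons the division cannot be told apart from the group. The division of 70 probes separates SPF postweaned from SPF preweaned and from germ-free postweaned. In SPF weaning and in SPF against germ-free after weaning it thus cannot be told apart from the group. Headings and annotation divide the samples otherwise, with germ-free preweaned 2 and humanized in 1 array series and the other 4 samples in another. Every comparison with the germ-free preweaned pair, humanized against germ-free among them, thus takes samples of both series.

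Across the 6 samples the subunits were lowest in SPF postweaned and highest in humanized preweaned ileum. Each subunit was centred on its own mean over samples, and the median centred level over all 65 was -0.31 in SPF postweaned, -0.14 in germ-free postweaned, 0.25 in humanized, 0.15 in SPF preweaned, and 0.09 and 0.01 in germ-free preweaned 1 and 2. The same median over all genes tested lay between -0.05 and -0.01. The humanized sample held the highest value of 25 subunits, where 13.7% of all genes had theirs, and SPF preweaned that of 18, where 18.2% of genes had theirs. SPF postweaned held the lowest value of 21 subunits (21.4% of all genes) and germ-free postweaned that of 16 (14.9%). A subunit's range over the samples had values from 0.34 to 4.62.

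**Figure D1:**
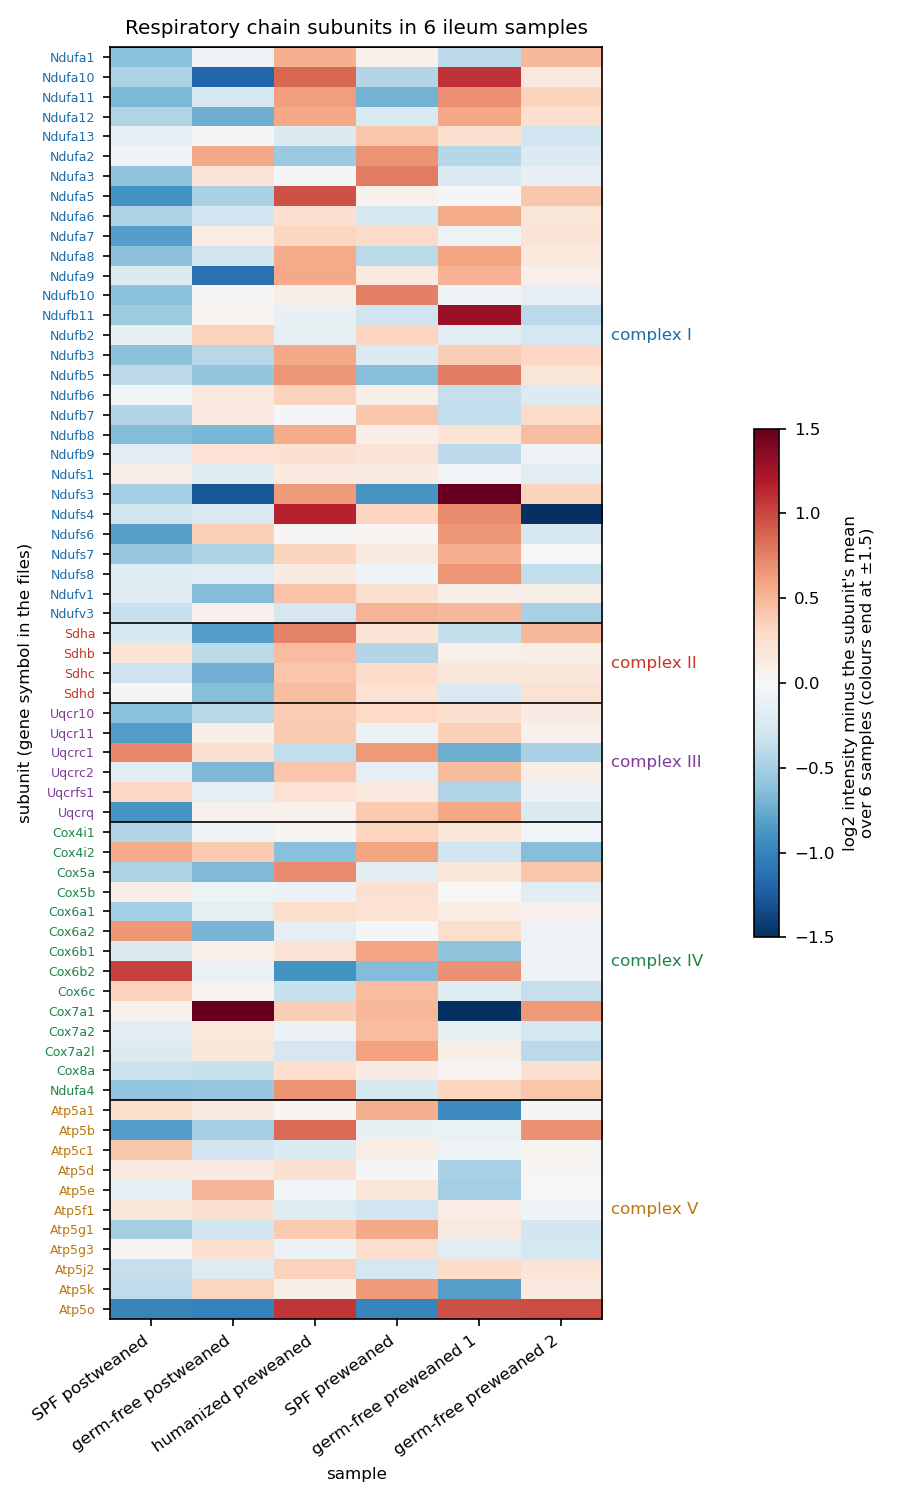
Level of 64 of the 65 subunits (rows, grouped by complex) in the 6 samples (columns), as log2 intensity minus each subunit's mean over the samples, with colours ending at 1.5 either way. SPF postweaned is mostly blue in complex I, where 1 of all 30 subunits lies above its own mean, and humanized mostly red, with 23 of 30.

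The complexes did not follow the samples alike. Complex I had a median centred level of -0.45 in SPF postweaned, -0.18 in germ-free postweaned, 0.33 in humanized, 0.12 in SPF preweaned, and 0.30 and 0.05 in germ-free preweaned 1 and 2. Complex II was at -0.13 in SPF postweaned, lowest in germ-free postweaned, at -0.68, and highest in humanized, at 0.46. Complex III followed complex I, with -0.39 in SPF postweaned, -0.03 in germ-free postweaned and 0.30 in humanized. Complex IV was at -0.18 in SPF postweaned, -0.06 in germ-free postweaned, -0.03 in humanized and 0.28 in SPF preweaned. Complex V stayed between -0.14, in SPF postweaned, and 0.12, in germ-free postweaned. These are differences of a subunit from itself, and no subunit's level was set against that of another.

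Weaning in SPF ileum went with lower subunit transcripts in most of the chain. Of 65 subunits, 54 were lower in SPF postweaned than in SPF preweaned ileum, where 52.5% of all genes were, and 11 higher (47.5%). At 1.5-fold or more, 25 were lower (19.4% of all genes) and 3 higher (20%). The median difference was -0.36, against -0.04 over all genes. Complex I had 27 of 30 subunits lower, at a median of -0.43, complex IV 12 of 14 at -0.39 and complex III 4 of 6 at -0.39. Complex II had 3 of 4 lower, at -0.34, and complex V 8 of 11, at -0.21. Of the 12 in complex IV, Cox4i2, Cox5b and Cox6c were dim and above background in SPF postweaned only. On every array, 38 subunits were lower (31.6% of all genes) and 7 higher (30.7%), which speaks only for the arrays, as each group is 1 sample.

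The subunits with the lowest differences were Ndufa3, Ndufb10, Uqcrq and Ndufa7. Ndufa3 of complex I was at 11.91 in SPF postweaned, 12.72 in germ-free postweaned, 12.49 in humanized, 13.30 in SPF preweaned, and 12.29 and 12.39 in germ-free preweaned 1 and 2. Its 2 SPF samples are the extremes of the 6, a 2.62-fold lower value after weaning (log2 difference -1.39 ± 0.46 SE, adjusted p = 0.94 by limma). Ndufb10, another accessory subunit of complex I, was at 11.27 in SPF postweaned, 11.86 in germ-free postweaned, 11.98 in humanized, 12.64 in SPF preweaned, and 11.83 and 11.73 in the germ-free preweaned pair, 2.57-fold lower in SPF after weaning. Again the other samples lay between the SPF pair. Uqcrq, a small subunit of complex III, was at 12.61 in SPF postweaned, 13.56 in germ-free postweaned, 13.56 in humanized, 13.89 in SPF preweaned, and 14.07 and 13.28 in the pair, 2.42-fold lower in SPF after weaning. Here SPF postweaned stood alone below the rest. Ndufa7 of complex I showed the same, at 9.48 in SPF postweaned, 10.41 in germ-free postweaned, 10.62 in humanized, 10.59 in SPF preweaned, and 10.22 and 10.495 in the pair.

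Subunits of the ATP synthase were among them. Atp5g1, which encodes the c subunit of the rotor, was at 11.68 in SPF postweaned and 12.75 in SPF preweaned ileum, 2.11-fold lower after weaning. Atp5k, subunit e, was 2.02-fold lower, at 11.86 against 12.87, but its germ-free preweaned pair differed by 0.96 between themselves, at 11.42 and 12.38. Atp5b, the catalytic beta subunit, was at 9.82 in SPF postweaned and 10.53 in SPF preweaned. The exceptions in the chain were few. Cox6b2, the testis form of a complex IV subunit, was 3.18-fold higher in SPF postweaned, at 10.11 against 8.44 in SPF preweaned. Sdhb, the iron-sulphur subunit of complex II, was 1.56-fold higher, at 13.47 against 12.83, and Atp5f1, subunit b of the ATP synthase, 1.38-fold higher, at 8.08 against 7.61.

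**Figure D2:**
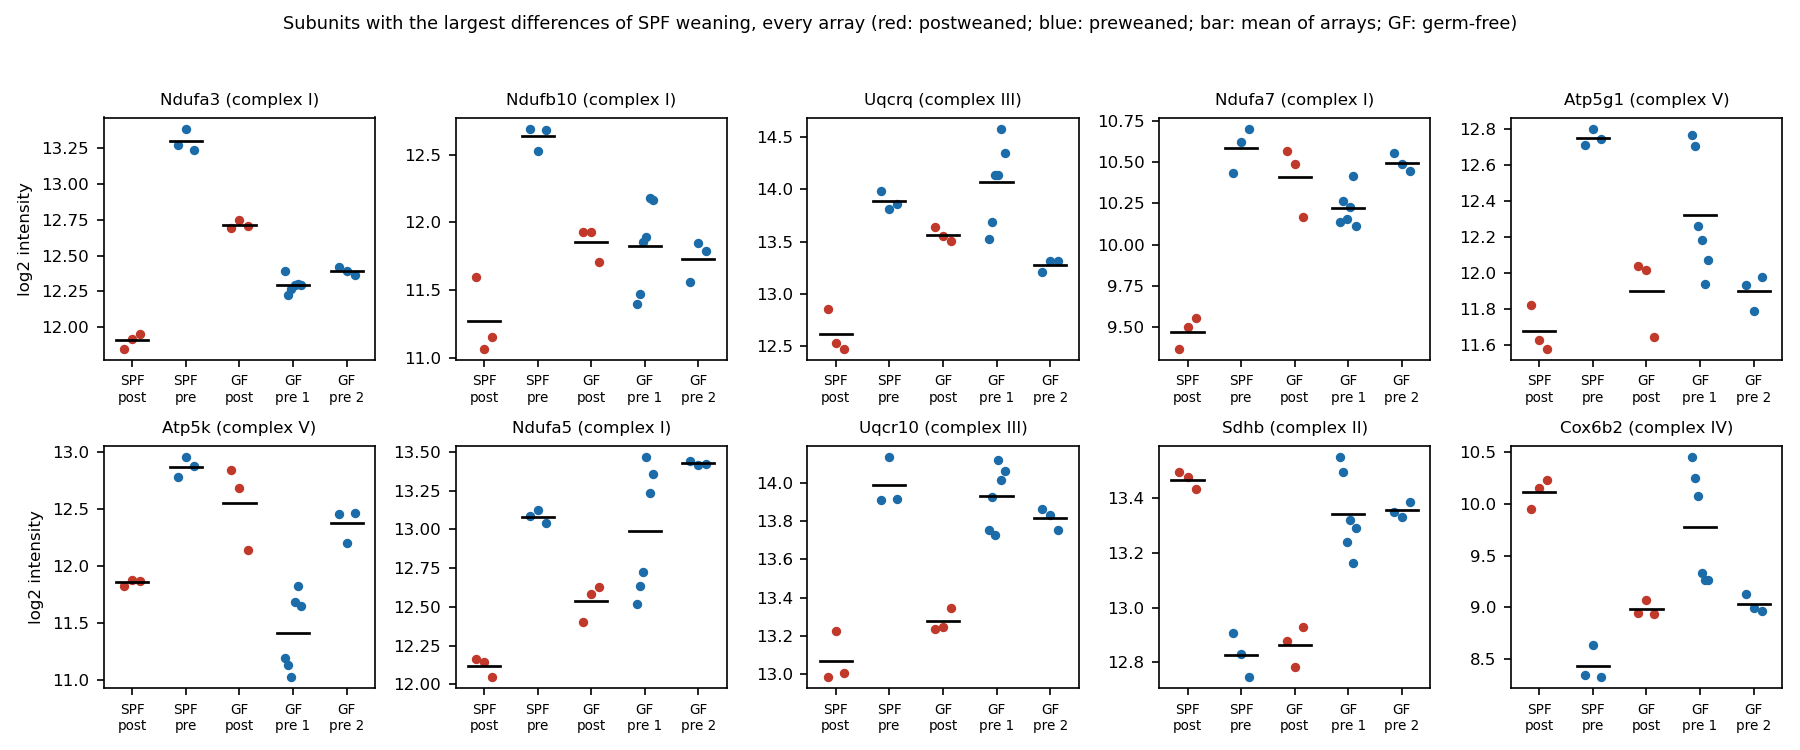
Every array's log2 intensity for the 8 subunits with the lowest and the 2 with the highest SPF postweaned minus preweaned difference among those above background in all samples, with bars at the mean of the arrays (red postweaned, blue preweaned; y axes differ). The SPF arrays of Ndufa3, at 11.91 against 13.30 on average, do not overlap.

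None of the subunits passed limma in SPF weaning (0 of 65 at an adjusted p under 0.05; 0% of all genes). At an unadjusted p under 0.05 there was 1 subunit, Ndufa3, and 627 of all genes. All replication in the model comes from both germ-free preweaned samples (1 residual degree of freedom), and a lone sample is taken to vary as they do. The samples of that pair are of different array series and stood apart in Mamdc4 and Sis. Every test and every count against the pair carries that limit. Against the pair itself, 33 of 65 subunits differed by more in SPF weaning than between germ-free preweaned 1 and 2, where 50.5% of all genes did. Levels of cell type markers differed too. The 8 T and NK cell markers were all above background in SPF postweaned, against 3 of 8 in SPF preweaned. Their summed log2 level was 95.9 in SPF postweaned and 54.7 in SPF preweaned. The summed level of 11 suckling enterocyte markers was 115 in SPF postweaned, against 145 in SPF preweaned. Goblet cell markers, all 5 above background in both, summed to 76.6 in SPF postweaned and 65.3 in SPF preweaned, and cycling crypt markers to 37.1 and 32.7, with 3 and 1 of 5 above background. Their part in the subunit differences was not tested. In bulk tissue fewer cells of a type and less RNA per cell cannot be told apart.

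SPF against germ-free ileum after weaning gave opposite directions in complexes II and I. All 4 subunits of complex II were higher in SPF postweaned (median 0.60), while complex I was lower in 22 of 30 (median -0.20). Complex III was lower in 3 of 6 (0.12), complex IV in 7 of 14 (-0.0058) and complex V in 7 of 11 (-0.15), and differences between complexes were not tested. Over the chain, 26 of 65 subunits were higher in SPF (48.9% of all genes) and 39 lower (51.1%), with a median of -0.15 against -0.02 over all genes. That gap depended on the setting: it was -0.18 against -0.13 over probes above background in all 6 samples, and -0.18 against 0.17 with arrays scaled to their 75th percentile. In size, 9 were 1.5-fold or more higher (19.2%) and 11 lower (17.9%), shares no larger than those of all genes. On every array 18 were higher (29.4%) and 24 lower (30.7%).

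Complex II was higher in SPF in each of its subunits. Sdha, the flavoprotein that oxidizes succinate, was at 12.83 in SPF postweaned and 12.24 in germ-free postweaned ileum, with 13.81 in humanized, 13.27 in SPF preweaned, and 12.71 and 13.55 in germ-free preweaned 1 and 2. Sdhb was at 13.47 in SPF postweaned and 12.86 in germ-free postweaned, with 13.73, 12.83, 13.34 and 13.36 in the rest in the same order. For both, germ-free postweaned was at or near the bottom of the 6 samples. The membrane anchors did likewise: Sdhc was at 12.42 and 12.01 in SPF and germ-free postweaned, with 13.16, 13.02, 12.91 and 12.91 in the rest. Sdhd was at 13.27 and 12.64, with 13.75, 13.51, 13.05 and 13.50. The SPF over germ-free folds were 1.51 for Sdha, 1.52 for Sdhb, 1.33 for Sdhc and 1.54 for Sdhd. Sdha differed by 0.84 within the germ-free preweaned pair, more than its 0.59 here.

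In complex I the single values went both ways. Ndufa9, an accessory subunit, was at 12.42 in SPF postweaned, against 11.50 in germ-free postweaned, the lowest of the 6 samples, a 1.88-fold higher value in SPF. Ndufs3, a core subunit of the peripheral arm, was at 8.66 in SPF and 7.91 in germ-free postweaned, 1.69-fold higher, with 9.82 in humanized, 8.29 in SPF preweaned, and 10.87 and 9.51 in the germ-free preweaned pair. Ndufa7 was lower in SPF, at 9.48 against 10.41 in germ-free postweaned, as was Ndufa3, at 11.91 against 12.72. Ndufs6, a zinc-binding accessory subunit, read 6.64 in SPF postweaned (1 of 3 arrays) and 7.81 in germ-free postweaned (2 of 3 arrays). Ndufs6 was not above background in SPF postweaned, so that no fold is given. Uqcr11 of complex III was 1.92-fold lower in SPF, at 10.03 against 10.97. The SPF postweaned value of Uqcr11 is below all others, which lie between 10.78 and 11.25. Limma called 0 subunits (0% of all genes); no subunit and 521 genes had an unadjusted p under 0.05. Past their own difference in the germ-free preweaned pair were 33 subunits (48.5% of all genes). The T and NK markers stood at 95.9 in SPF and 68.6 in germ-free postweaned, with 8 and 5 of 8 above background. Cycling crypt markers stood at 37.1 and 32.7, with 3 and 0 of 5 above background, and the part of both lists was not tested.

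Humanized against germ-free ileum before weaning showed small differences, mostly upward. In all, 47 of 65 subunits were higher in humanized (47.4% of all genes) and 18 lower (52.6%), with a median of 0.19 against -0.02 over all genes. At 1.5-fold or more, 6 were higher (9.95%) and 1 lower (7.31%). The humanized value was above both germ-free preweaned samples in 36 subunits (24.1% of all genes) and below both in 5 (28.7%), and 16 were higher on every array (10.9%) and 1 lower (8.44%). Complex II was higher in 4 of 4 (median 0.42), complex I in 22 of 30 (0.19), complex III in 5 of 6 (0.19), complex V in 9 of 11 (0.21) and complex IV in 7 of 14 (0.04).

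The values per subunit show how the pair limits this. Ndufa5, an accessory subunit of complex I, was at 13.97 in humanized, against 12.99 and 13.43 in germ-free preweaned 1 and 2, the highest of the 6 samples and 1.70-fold above the pair's mean. Sdha was 1.60-fold higher, at 13.81 against 12.71 and 13.55, and Ndufb6 1.54-fold higher, at 12.30 against 11.60 and 11.75. Cox5a, a subunit of complex IV found in most tissues, was at 15.68 in humanized, against 15.15 and 15.39. The largest differences rest on odd values of the pair. Ndufs4, an accessory subunit whose loss causes Leigh syndrome in people, was at 13.80 in humanized, against 13.36 and 10.996, a difference of 1.63. One of its 3 spots in germ-free preweaned 2 carried a flag and was dim, and without that spot the value there was 13.67 and the difference 0.29. A second Ndufs4 probe was at 12.45 in humanized, against 12.20 and 12.27. Cox7a1, the muscle form of a complex IV subunit, was at 10.31 in humanized, against 6.84 in germ-free preweaned 1 and 10.59 in sample 2. Going down, Cox6b2 was 2.32-fold lower, at 8.19 against 9.77 and 9.03.

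Limma again called 0 subunits (0% of all genes), with 0 subunits and 70 genes under an unadjusted p of 0.05. The humanized difference exceeded the pair's own in 24 subunits (27.3% of all genes). Smooth muscle markers were above background in 6 of 7 in humanized, with a summed level of 70.5, against 4 and 5 of 7 and 56.9 and 62.4 in germ-free preweaned 1 and 2. All 4 endothelial markers were above background in humanized, against 1 and 2. Their part in the subunit differences was not tested. Germ-free preweaned 2, which shares array series with humanized, gave a median difference of 0.24 on its own, and germ-free preweaned 1 of 0.14.

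The next comparisons cross the array sets read from probe detection, which cannot be told apart from the groups there, and the values are given as measured. SPF against germ-free ileum before weaning had 38 subunits higher (48.4% of all genes) and 27 lower (51.6%), at a median of 0.14 against -0.03 over all genes. Differences of 1.5-fold or more counted 15 higher (23.4%) and 11 lower (24%). The subunits' median relative to that of all genes turned to -0.04 when arrays were scaled to their 75th percentile, so no direction is given for the chain. Uqcrc1 was at 13.25 in SPF preweaned, against 11.89 and 12.14 in germ-free preweaned 1 and 2, 2.37-fold higher. Atp5a1, the alpha subunit of the ATP synthase, was at 13.32, against 11.85 and 12.76, and Ndufa2, an accessory subunit, at 12.02, against 10.93 and 11.16. For these, SPF preweaned was above both germ-free samples. Lower in SPF were Ndufs3 (8.29 against 10.87 and 9.51, 3.75-fold), Ndufa11 (11.23 against 12.63 and 12.27) and Ndufb5 (10.18 against 11.59 and 10.99). Inside complex I both directions were seen, with Ndufa2 higher and Ndufs3, Ndufa11 and Ndufb5 lower. Limma called 0 (0% of all genes), 2 subunits and 1182 genes had an unadjusted p under 0.05, and 41 subunits passed their pair difference (54.4%). Cycling crypt markers summed to 32.7 in SPF preweaned, against 44.9 and 39.9 in germ-free preweaned 1 and 2, and their part was not tested.

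Weaning in germ-free ileum had 27 subunits higher (49.7% of all genes) and 38 lower (50.3%), with a median of -0.13 against -0.0044 over all genes. At 1.5-fold or more, 23 were lower in germ-free postweaned (24.2% of all genes) and 8 higher (22.8%). All 4 subunits of complex II were lower, at a median of -0.76, and complex I was lower in 18 of 30, at -0.22, while complex V was higher in 6 of 11. Ndufa10, an accessory subunit of complex I, was at 10.90 in germ-free postweaned, against 13.16 and 12.24 in germ-free preweaned 1 and 2, 3.49-fold lower. Ndufa9 was at 11.50, against 13.14 and 12.70, and Ndufa12 at 11.30, against 12.62 and 12.29. The germ-free postweaned value of each was the lowest of the 6 samples. Higher after weaning were Ndufa2 (11.93 against 10.93 and 11.16) and Uqcrc1 (12.86 against 11.89 and 12.14). The median was -0.37 against germ-free preweaned 1 alone and -0.04 against germ-free preweaned 2 alone. Limma called 0 (0% of all genes), 4 subunits and 927 genes had an unadjusted p under 0.05, and 40 subunits passed their pair difference (54.8%). Cycling crypt markers were above background in 0 of 5 in germ-free postweaned, with a summed level of 32.7, against 5 and 3 of 5, at 44.9 and 39.9, in germ-free preweaned 1 and 2. Goblet markers summed to 77.3 in germ-free postweaned, against 68.4 and 71.2, and T and NK markers to 68.6, against 56.4 and 66.6. Suckling enterocyte markers summed to 119.0, against 145.3 and 120.5, and mature enterocyte markers to 67.3, against 47.9 and 70.4. By both enterocyte lists germ-free preweaned 2 lay nearer to germ-free postweaned than germ-free preweaned 1 did. Their part in these differences was not tested.

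Both weanings share no sample, and their values can be read side by side. Of 65 subunits, 31 were lower after weaning in SPF and in germ-free ileum (27.2% of all genes), which is 31 of the 54 lower in SPF and 31 of the 38 lower in germ-free weaning, and 4 were higher in both (24.5%). Lower in SPF weaning and also below each germ-free preweaned sample in germ-free weaning were 25 (19.8%), of which 11 belong to complex I and 3 to complex II. Whether the lists share more subunits than their sizes give was not tested. The interaction, SPF weaning minus germ-free weaning, had 31 subunits higher (48.8% of all genes) and 34 lower (51.2%), at a median of -0.21 against -0.03. Interactions of 1.5-fold or more counted 12 higher (28.1%) and 25 lower (29.2%). Ndufa3 had -1.39 in SPF weaning and 0.37 in germ-free weaning, and Ndufs3 0.38 and -2.28. Limma called 0 interactions among subunits (0% of all genes; 1 subunit, Atp5o, and 771 genes under an unadjusted p of 0.05).

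Humanized against SPF ileum before weaning had 38 subunits higher (50.6% of all genes) and 27 lower (49.4%), with a median of 0.08 against 0.01. With 75th percentile scaling it was 0.13 against -0.18. Differences of 1.5-fold or more counted 15 higher in humanized (26.8%) and 10 lower (26.3%). Complex II was higher in 4 of 4 (median 0.39) and complex I in 21 of 30 (0.20), while complex IV was lower in 10 of 14 (-0.28). Of those 10, Cox4i2, Cox5b, Cox6a2 and Cox6c were above background in neither sample, so no direction is given for complex IV. Ndufa11 was at 12.56 in humanized and 11.23 in SPF preweaned, Ndufb5 at 11.48 and 10.18, Ndufa10 at 12.94 and 11.65, and Ndufs3 at 9.82 and 8.29. Each was 2.45-fold or more higher in humanized. Ndufa2 was at 10.80 in humanized and 12.02 in SPF preweaned, and Uqcrc1 at 12.25 and 13.25. Limma called 0 (0% of all genes), 1 subunit and 1241 genes had an unadjusted p under 0.05, and 36 subunits passed their pair difference (58.7%). Crypt markers summed to 43.7 in humanized and 32.7 in SPF preweaned, and suckling enterocyte markers to 119 and 145; their part was not tested.

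**Figure D3:**
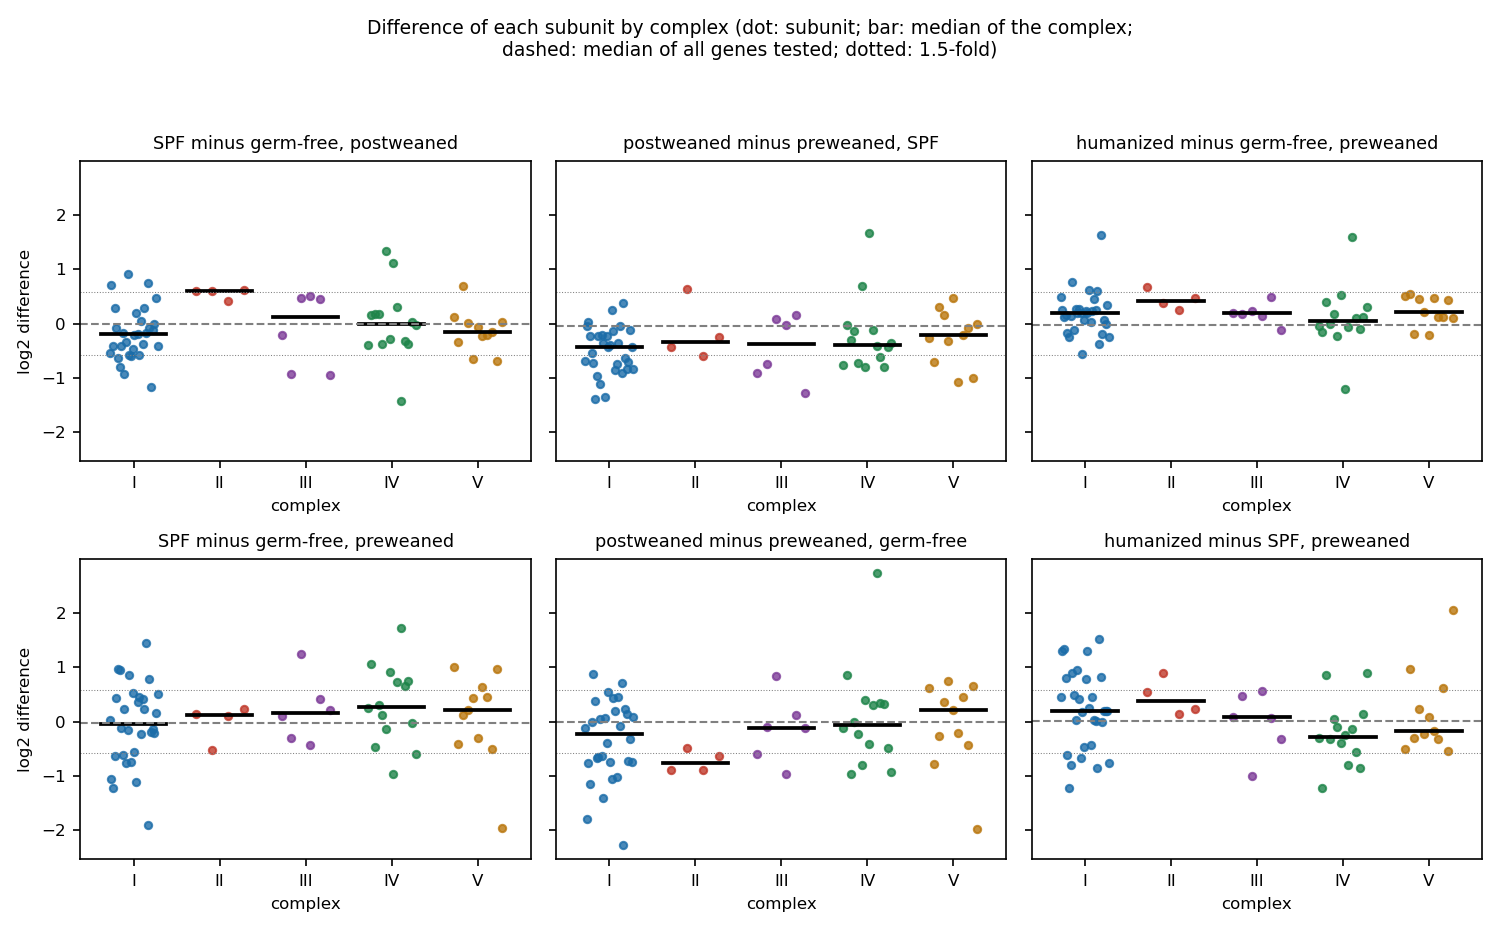
Log2 difference of each subunit (dots) by complex in 6 comparisons, with the median of the complex (bar), the median of all genes tested (dashed) and 1.5-fold (dotted). In SPF weaning the medians of all 5 complexes lie below the dashed line, from -0.43 to -0.21, and complex II lies above it in SPF minus germ-free, postweaned, at 0.60.

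Atp5o, which encodes the stalk subunit OSCP of the ATP synthase, is an example of a value that follows the array sets. It was at 5.66 in SPF postweaned, 5.64 in germ-free postweaned, 7.73 in humanized, 5.67 in SPF preweaned, and 7.62 and 7.64 in germ-free preweaned 1 and 2. It was above background in humanized and germ-free preweaned 1 only and was detected on no array of the other 4 samples, where its levels are bounds. Humanized was at least 1.26-fold above SPF preweaned, and the fitted difference of 2.07 is no bound. No fold is given against germ-free preweaned ileum, where no array of germ-free preweaned 2 detected it.

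Complex IV carries several subunits as pairs of isoforms, one found in most tissues and another known from muscle, lung or testis. Of the common forms, Cox4i1, Cox6a1, Cox6b1, Cox7a2 and Cox8a were above background in all 6 samples, and Cox7b was not detected. Cox4i1 was at 14.27 in SPF postweaned, 14.66 in germ-free postweaned, 14.73 in humanized, 15.03 in SPF preweaned, and 14.89 and 14.67 in germ-free preweaned 1 and 2. Cox6a1 was at 14.25, 14.62, 15.02, 14.98, 14.87 and 14.83 in the same order, and Cox8a at 13.75, 13.73, 14.32, 14.19, 14.10 and 14.31. SPF postweaned was lowest for Cox4i1 and Cox6a1. Cox7a2 was at 14.20, 14.53, 14.27, 14.83, 14.25 and 14.10, and Cox6b1 at 13.27, 13.56, 13.69, 14.08, 12.88 and 13.42. SPF preweaned was highest for Cox4i1, Cox6b1 and this probe of Cox7a2, while a dimmer Cox7a2 probe was highest in germ-free preweaned 2, at 9.84, against 9.60 in SPF preweaned. Cox7a2l, counted to complex IV here by its symbol, was also highest in SPF preweaned, at 13.39, and had values from 12.39 to 12.97 elsewhere. Ndufa4, once counted to complex I and now to complex IV, was at 13.28, 13.31, 14.55, 13.64, 14.20 and 14.29.

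The tissue-restricted forms were patchy. Cox6a2, of heart and skeletal muscle, was above background by 1 of its 2 probes, in SPF postweaned alone, on 3 of 3 arrays at 7.33; on the arrays of the other samples that probe was not detected and read 5.99 to 6.95. The second Cox6a2 probe ran the other way, at 6.35 in SPF postweaned, 7.05 in germ-free postweaned and 6.97 in SPF preweaned, and was above background in no sample, so that no direction is given for the gene. Striated muscle markers above background numbered 3 of 5 in SPF postweaned and 1 to 3 of 5 elsewhere. Their summed level was 40.0 in SPF postweaned and 32.8 to 37.1 elsewhere. Only Acta1 was highest in SPF postweaned, at 10.89, against 6.18 to 8.81 elsewhere. Tnnc1 and Myl2 were highest in SPF preweaned. Tnnt2 and Ckm, not above background in SPF postweaned, were highest in humanized. Cox4i2, the lung form, was detected on 2 of 3 arrays of SPF postweaned, at 6.91, and on no other array. Undetected, it read as high in SPF preweaned, at 6.95, with 6.75 in germ-free postweaned and 5.72 to 6.06 in the rest. Cox7a1 had the widest range of all subunits: it was at 10.02 in SPF postweaned, 11.46 in germ-free postweaned, 10.31 in humanized, 10.44 in SPF preweaned and 10.59 in the second germ-free preweaned sample, but at 6.84 in germ-free preweaned 1, where 1 of 6 arrays detected it. Both column sets of that sample were low. Cox6b2 was above background in all samples, at 10.11 in SPF postweaned, 8.98 in germ-free postweaned, 8.19 in humanized, 8.44 in SPF preweaned, and 9.77 and 9.03 in germ-free preweaned 1 and 2. By this probe it was highest in SPF postweaned, where the chain's median was lowest; a dimmer probe of Cox6b2 was highest in germ-free preweaned 1, at 9.17, with 8.36 in SPF postweaned. Cox7b, Cox7b2, Cox8b, Cox8c and Ndufa4l2 were detected on no array, as was Ndufc2, and Ndufv2, a core subunit, on 1 array of 21.

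**Figure D4:**
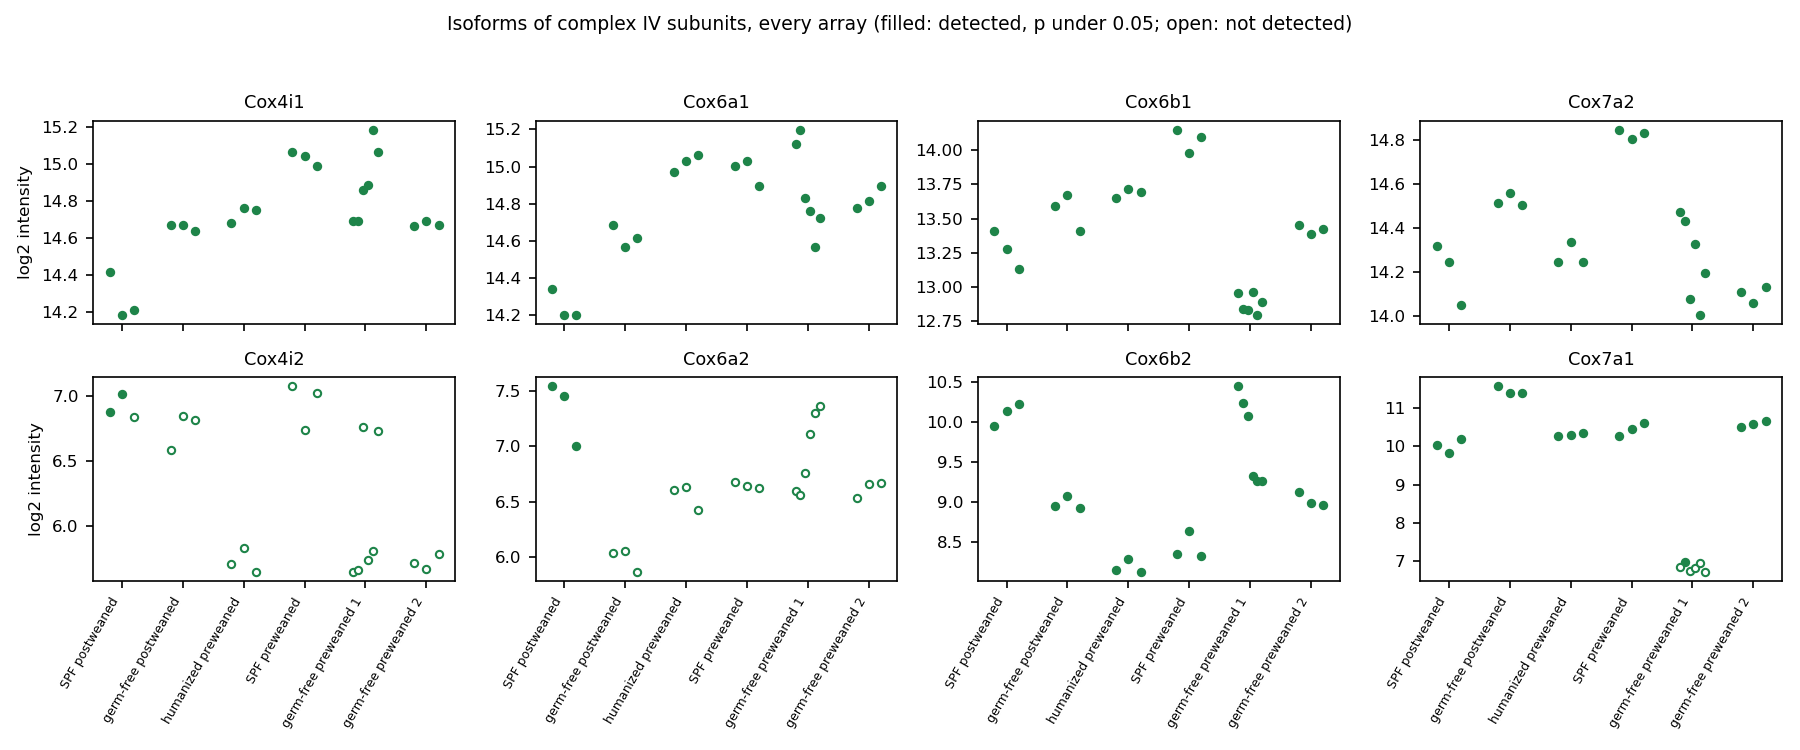
Log2 intensity on every array for common (upper row) and tissue-restricted (lower row) isoforms of complex IV subunits in the 6 samples, with filled dots where the probe was detected and open dots where it was not (y axes differ). The plotted probe of Cox6a2 is filled in SPF postweaned only, and Cox7a1 is near 6.84 in germ-free preweaned 1 against 10.02 or more elsewhere.

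Other abundant subunits differed in which sample was lowest. Ndufa6 of complex I was at 13.73 in SPF postweaned, 13.91 in germ-free postweaned, 14.44 in humanized, 13.95 in SPF preweaned, and 14.74 and 14.37 in germ-free preweaned 1 and 2. Ndufa13, also known as GRIM-19, was at 13.96, 14.04, 13.87, 14.49, 14.32 and 13.79 in the same order. Uqcrc2, a core protein of complex III, was at 13.73, 13.22, 14.31, 13.75, 14.38 and 13.99. The lowest sample was SPF postweaned for Ndufa6, germ-free preweaned 2 for Ndufa13 and germ-free postweaned for Uqcrc2. Uqcr10 of complex III was at 13.07, 13.28, 14.07, 13.99, 13.93 and 13.82, with both postweaned samples below all preweaned ones. Atp5g3, another c-subunit gene of the ATP synthase, was at 15.01, 15.22, 14.90, 15.23, 14.82 and 14.72, and Atp5d, its delta subunit, at 13.54, 13.53, 13.63, 13.39, 12.92 and 13.42. Neither of these ATP synthase genes set the postweaned samples below the preweaned ones.

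How alike the subunits were was described by the correlation of each with the mean of all others over the 6 samples, which share arrays and normalization. The median r was 0.48 in complex I, 0.66 in complex II, 0.65 in complex III, 0.10 in complex IV and -0.18 in complex V. Uqcr10 (0.97), Cox6a1 (0.94) and Ndufa5 (0.91) lay closest to the mean, and Atp5f1 (-0.83), Cox6b2 (-0.74), Cox4i2 (-0.62) and Uqcrc1 (-0.56) ran against it. Among 6470 other genes above background in all samples, those most like the mean of the subunits were Mecr (r = 0.99 over 6 samples), of mitochondrial fatty acid synthesis, Hdac2, Glrx5, Mrpl13, Nup62, Samm50, Mcrip2, Rplp0, Sdr39u1 and Anapc13. Mecr was at 8.72 in SPF postweaned, 8.84 in germ-free postweaned, 10.06 in humanized, 9.53 in SPF preweaned, and 9.53 and 9.38 in germ-free preweaned 1 and 2. Samm50, of the outer membrane sorting machinery, was at 12.09, 12.42, 13.45, 13.10, 13.10 and 13.13. For both genes the postweaned samples were below the preweaned ones. Both were chosen by their likeness to the subunits' mean, so this order is no separate finding.

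The germ-free preweaned pair is the only measure of spread within a group. Its 2 samples lie in different array series and stood apart in summed suckling (145.3 and 120.5) and mature (47.9 and 70.4) enterocyte markers. The pair's difference may thus hold more than the spread between like samples, which was not tested. Between the 2 samples, subunits differed by a median of 0.36 in size, against 0.44 over all genes. Germ-free preweaned 1 was higher in 37 and lower in 28. At 1.5-fold or more, 10 were higher in sample 1 (19.5% of all genes) and 8 lower (19.5%). Ndufb11, an X-linked accessory subunit, was at 10.06 in sample 1 and 8.36 in sample 2, and Ndufs3 at 10.87 and 9.51. The file of germ-free preweaned 1 holds 2 column sets of 3 arrays, and the labels do not say whether both are of 1 animal. Between the sets, no subunit was 2-fold apart (0 of 65) and 10 were 1.5-fold apart, where 356 and 1614 of all genes were.

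Other mitochondrial genes gave the setting. Limma called 0 of them in any comparison. In SPF weaning 52.5% of all genes were lower in SPF postweaned, and 19.4% were so at 1.5-fold or more. There, 49 of 62 mitochondrial ribosomal protein genes, which translate the mitochondrial DNA subunits, were lower (median -0.44), 25 of them at 1.5-fold or more. Of 37 assembly factors, 24 were lower (median -0.28). Biogenesis regulators were lower in 12 of 16 (-0.36) and citric acid cycle and pyruvate dehydrogenase genes in 13 of 20 (-0.19), beside -0.04 over all genes. In germ-free weaning 29 of 37 assembly factors were lower in germ-free postweaned (median -0.71), against 50.3% of all genes (median -0.0044). In humanized against germ-free, 17 of 20 cycle genes were higher (0.35), against 47.4% of all genes. Of the assembly factors, 24 of 37 were lower there (-0.09), against 52.6% of all genes, whose median was -0.02. Of the remaining lists in SPF weaning, electron carriers and further subunits had 5 of 9 genes higher (0.06). Carriers with creatine kinase had 4 of 8 (0.03) and oxidant defence 3 of 6 (-0.14), where 47.5% of all genes were higher.

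Single genes of these lists differed between samples too. Ppargc1a, the coactivator PGC-1 alpha of mitochondrial biogenesis, was at 9.23 in SPF postweaned, 9.91 in germ-free postweaned, 8.05 in humanized, 10.06 in SPF preweaned, and 6.86 and 8.95 in germ-free preweaned 1 and 2. Ppara, the fatty acid receptor, was at 8.00, 9.45, 10.76, 10.87, 8.28 and 10.36 in the same order, a log2 difference of -2.88 in SPF weaning. Neither followed the order of the subunits' medians. Etfdh, which feeds electrons from fatty acid oxidation into the chain, was at 10.77, 9.64, 11.45, 10.44, 12.11 and 11.02. Pdha1 of pyruvate dehydrogenase was at 11.32, 10.91, 12.87, 11.66, 12.59 and 12.40. Germ-free postweaned was lowest for both. The mitochondrial creatine kinase Ckmt1 was at 14.47 in SPF postweaned, 14.32 in germ-free postweaned, 5.68 in humanized, 14.68 in SPF preweaned, and 5.68 and 5.70 in germ-free preweaned 1 and 2, along the array sets. Sco2, a copper chaperone of complex IV, was at 13.19, 11.41, 5.65, 12.83, 10.51 and 5.65 in the usual order, low in both samples of 1 array series.

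**Figure D5:**
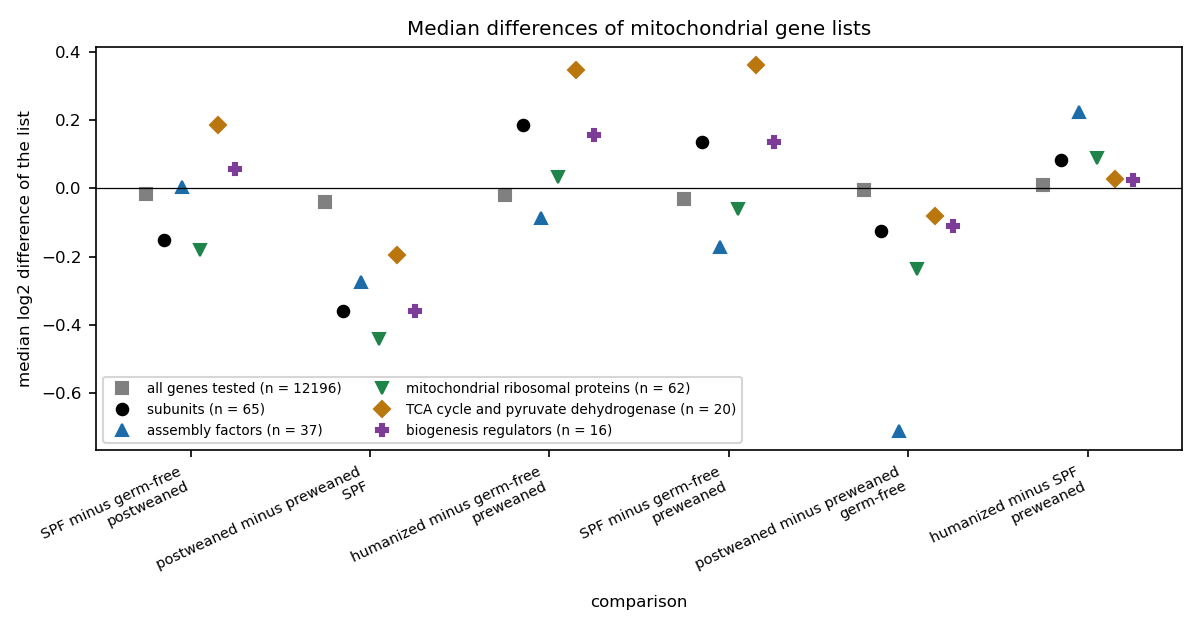
Median log2 difference of the subunits, of all genes tested and of 4 other mitochondrial lists in 6 comparisons, with the number of genes in the legend. In SPF weaning the 5 mitochondrial lists drawn lie below all genes, from -0.44 to -0.19. Of the lists not drawn, electron carriers and further subunits had 0.06, carriers with creatine kinase 0.03 and oxidant defence -0.14. Assembly factors reach -0.71 in germ-free weaning.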

How the data were processed

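The authors deposited, per the file headers, 3 raw intensity columns per sample (6 for germ-free preweaned 1), each with a detection p-value per probe. Intensities are whole numbers, some below 0, so a background had been subtracted; no source used here names the scanner software. A table of processed intensity values, also deposited, equals the mean of a sample's raw arrays and is not scaled between samples.

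The 21 arrays were quantile-normalized, set to 0 if below 0, offset by 50 and log2-transformed, which understates differences of dim genes, then averaged per column set and per sample. No normexp step was run, since the background was already subtracted. A gene is its tested probe with the highest mean. Group means were fitted by limma 3.58.1 (R 4.3.3) across all 12196 genes, with Benjamini-Hochberg adjustment and adjusted p under 0.05 for a call. Nothing says that the germ-free preweaned pair are separate litters, so p-values measure the spread between these samples only. Array number limits the precision. Scripts were tested on simulated data with less spread than the germ-free preweaned pair. That test does not show which changes the fit could find here. No subunit reached saturation (0).

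Symbols are those of the files. Members and lists were chosen with earlier results of these data known. Any subunit above background could be named. Those to be given in every sample were, by rule, the widest-ranging and the most abundant of each complex, the most changed of each comparison, and the isoform families; the text gives a selection of these, in part for the compared samples only. Genes of other lists were to be the widest-ranging, and those most like the subunits were taken by highest correlation. The values of 1 subunit of complex I are not reported here by themselves; it is counted in the totals.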

Additional observations from a re-analysis of the deposited data

How the results depend on the processing

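Alternatives numbered 14, of which 2 (all 68 matching symbols, and leaving out 5 subunits above background in under 3 samples) were chosen after seeing the data. Limma called 0 subunits under each one with a fit; leaving out a germ-free preweaned sample leaves no residual degree of freedom, so that no test was possible there. No paired analysis was possible because replicate numbers follow accession order and 4 of 5 groups hold 1 sample.

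With 75th percentile scaling the median subunit difference was -0.27 in SPF weaning and -0.28 for the interaction. Over probes above background in all 6 samples it was -0.43 in SPF weaning, -0.22 in germ-free weaning and 0.16 for humanized minus SPF, and with no filter -0.081 for SPF minus germ-free, postweaned. The authors' processed values carry the arrays' brightness: they gave 0.19 and 0.79 for SPF minus germ-free after and before weaning, -0.76 and -0.25 for weaning in SPF and germ-free, 0.33 and -0.42 for humanized against germ-free and SPF, and -0.54 for the interaction, with 42 and 13 subunits at 1.5-fold in SPF and in humanized against germ-free, preweaned. Relative to all genes in the same values the median was -0.35 in SPF weaning, -0.28 for SPF minus germ-free, postweaned, and 0.02 for it before weaning.

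The first column set of germ-free preweaned 1 alone gave 0.21 for SPF minus germ-free, preweaned, and -0.13 for the interaction; the second gave 0.0696, and -0.21 in germ-free weaning. Without flagged spots germ-free weaning had -0.21 and the interaction -0.13. Leaving out each germ-free preweaned sample gave -0.373 to -0.0439 in germ-free weaning, and 4 to 19 subunits at 1.5-fold in humanized minus germ-free. The cause of these shifts was not tested.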
